A study of Homo sapiens with 2 samples.

Results

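The genes of the proteasome were examined in RNA-seq libraries of H1944, a line of human lung adenocarcinoma cells in long use. They were chosen by symbol, as PSMA, PSMB, PSMC, PSMD, PSME, PSMF or PSMG followed by digits alone, which gave 48 of the 59125 rows with a count and left out pseudogenes. The series held 2 libraries, 1 from cells carrying a control short hairpin RNA (shCON) and 1 from cells carrying a short hairpin RNA against USP12 (shUSP12), a deubiquitinase that removes ubiquitin from proteins. Both groups are labelled as the same line, and the methods describe hairpins delivered by lentivirus from the pLKO.1 vector. Which of the listed USP12 hairpins was used is not stated, and the column of the shCON counts is named for RFP where the methods describe a hairpin against GFP. Each group has 1 library, so the differences lack replicates and no p-values are given.

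The proteasome is the protease that degrades proteins tagged with ubiquitin. Its barrel, the 20S core, is built of alpha rings at the ends and beta rings in the middle, and 3 kinds of beta subunit, PSMB5, PSMB6 and PSMB7, carry the cutting sites. The 19S cap binds ubiquitin chains, unfolds the protein with its ATPases and feeds it into the barrel. Interferon signalling and NF-κB activity are known to induce the alternative cutting subunits PSMB8, PSMB9 and PSMB10, which replace PSMB5, PSMB6 and PSMB7 respectively in newly assembled cores to form the immunoproteasome. The same signals induce PSME1 and PSME2, which together form the PA28 activator ring, and the changed cutting favours peptides that are displayed on MHC class I. The question asked here was whether these 5 immunoproteasome genes differed between the libraries in the same way as the constitutive members.

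Counts summed to 18249112 in shCON and to 17475359 in shUSP12, and proteasome genes took 0.571% and 0.606% of them. Levels are given as counts per 1000000 counts (CPM) after scaling by trimmed mean of M values (TMM), and the 95% intervals cover counting error only. USP12 itself, on chromosome 13, gave 711 counts in shCON against 219 in shUSP12. Its log2 ratio was −1.76 (95% interval −1.99 to −1.55), so the targeted gene followed the labels. The libraries also differed in genes that define the labelled cell type. Of 9 epithelial and lung adenocarcinoma markers, 7 exceeded 3 counts in the shCON library and 8 did so in shUSP12, with summed levels of 7145 and 6094 CPM. KRT19, an epithelial keratin, had 32 counts in shCON and 4452 in shUSP12, EPCAM had 115 and 1566, and NKX2-1, the lung lineage transcription factor, had 0 and 312. CDH1 had 1026 and 2496 counts, and KRT7, an abundant keratin, had 13626 and 22378. Of the 7 markers that averaged 1 CPM or more, 5 were higher in shUSP12 and 2 were lower. The lower ones were the abundant keratins KRT8 and KRT18, with 85596 and 62180 counts for KRT8 and 24132 and 18096 for KRT18. SFTPB, a surfactant protein gene, was at 0 in both. Rows with 3 counts or fewer in shCON but 50 or more in shUSP12 numbered 119, of which 7 were annotated on chromosome Y, against 1 row the other way round, and 0 proteasome genes were among them. Whether both libraries came from the same culture was not tested, nor was the part of this difference in the ratios of the proteasome genes.

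Blood cells make immunoproteasome constantly, so their markers were read beside these genes. The 12 blood cell markers summed to 6.43 CPM in shCON and 6.72 CPM in shUSP12, with 4 of them, CD3D, CD3E, CD2 and MS4A1, at 0 counts in both libraries. In shCON 3 of the 12 exceeded 3 counts, and in shUSP12 5 did. The largest, ITGAM, had 80 and 58 counts and a log2 ratio of −0.52 (95% interval −1.05 to −0.03). CD14 had 21 and 31 counts and CD79A 7 and 15, with intervals that included 0. LYZ had 0 and 7. PTPRC, which encodes the pan-leukocyte protein CD45, had 0 counts in shCON and 2 in shUSP12. The 6 fibroblast markers summed to 187.8 CPM and 121.3 CPM, of which COL1A1 gave 109.6 and 25.3 CPM, and COL1A2 was at 0 in shCON. LUM and DCN were higher in shUSP12, with log2 ratios of 0.41 (95% interval 0.28 to 0.55) and 0.24 (95% interval 0.07 to 0.42). In bulk RNA, fewer cells of a type and less RNA per cell cannot be told apart. The 4 endothelial markers summed to 0.803 CPM and 3.01 CPM.

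All 5 immunoproteasome genes were higher in shUSP12, whereas the constitutive members lay around the level of the transcriptome. Of the 48 proteasome genes, 46 averaged 1 CPM or more across the libraries, and these were compared. The median log2 ratio of shUSP12 over shCON, taken after adding 0.1 CPM to each value, was 0.57 for the 5 immunoproteasome genes and −0.06 for the 41 constitutive and other members, a difference of 0.63. The median over all 14612 rows that passed the same filter was −0.01. The lowest of the 5 immunoproteasome log2 ratios was 0.40, and 39 of the other 41 members lay below it. The exceptions were PSMD12 and PSMA6. The share of all rows below 0.40 was not counted, so the place of those members is not set apart from other genes. At least 1.5-fold higher, a larger difference, were 11.9% of all rows and 3.15% of those that averaged 50 CPM or more.

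PSMB8, which replaces the chymotrypsin-like subunit PSMB5, lies on chromosome 6 at chr6:32840717-32844679 on the minus strand of GRCh38, in the MHC region. Its level was 44.7 CPM in shCON (779 counts, 95% interval 41.6 to 47.9) and 61.2 CPM in shUSP12 (1119 counts, 95% interval 57.6 to 64.8). Its log2 ratio was 0.45 (95% interval 0.32 to 0.59), a level 1.37-fold higher. Of all its annotated exons, 17.3% lie opposite exons of other genes, but none of its main transcript does. PSMB9, which replaces PSMB6, lies on the plus strand at chr6:32844136-32859851, a span that overlaps the end of the PSMB8 span. Of all its annotated exons, 5.21% lie in exons of other genes on the same strand and 4.16% lie opposite such exons. None of its main transcript does either. Its level was 17.6 CPM in shCON (306 counts) and 29.9 CPM in shUSP12 (547 counts). Its log2 ratio of 0.76 (95% interval 0.56 to 0.97), a 1.70-fold higher level, was larger than those of PSMB8, PSME1 and PSME2.

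PSMB10, which replaces PSMB7, lies on chromosome 16 at chr16:67934506-67936864. Its level was 2.52 CPM in shCON (44 counts) and 5.68 CPM in shUSP12 (104 counts). The log2 ratio of 1.14 (95% interval 0.65 to 1.71) was the highest of the 5, on the fewest counts. Of its main transcript, 56.1% lay inside exons of another gene on the same strand, so its level is uncertain.

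The activator genes PSME1 and PSME2 lie close to each other on chromosome 14. The level of PSME1 was 66.8 CPM in shCON (1165 counts) and 88.5 CPM in shUSP12 (1619 counts), with a log2 ratio of 0.40 (95% interval 0.30 to 0.51). That of PSME2 was 88.6 CPM (1544 counts) and 131.5 CPM (2406 counts), with a log2 ratio of 0.57 (95% interval 0.48 to 0.66). Both partners of the PA28 ring were thus higher in shUSP12, and the ratio of PSME1 to PSME2 counts was 0.755 in shCON and 0.673 in shUSP12, with a change of 0.892 (95% interval 0.807 to 0.986). PSME3, which forms a separate activator ring found in the nucleus, gave 6302 counts in shCON against 6105 in shUSP12, with a log2 ratio of −0.12 (95% interval −0.17 to −0.06).

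**Figure D1:**
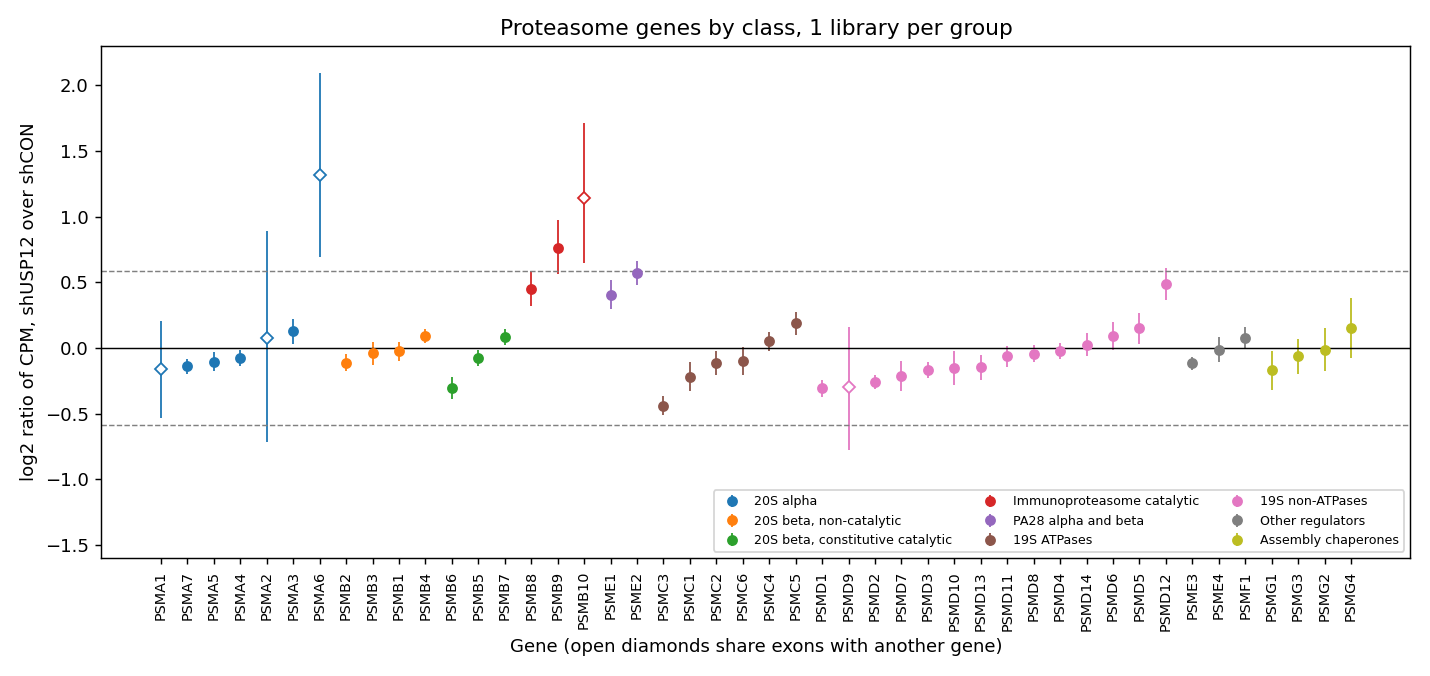
The log2 ratio of CPM in shUSP12 over shCON is plotted for the 46 proteasome genes with a mean of at least 1 CPM, grouped by class, with 1 library per group. Bars are 95% counting intervals, dashed lines mark 1.5-fold, and open diamonds mark genes that share exons with another gene. PSMB8, PSMB9, PSMB10, PSME1 and PSME2 lie between 0.40 and 1.14, and the other 41 genes lie between −0.44 and 1.31.

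Short sequences shared by these genes were then read, because the promoters of interferon-induced genes are known to carry the interferon-stimulated response element (ISRE), bound by IRF proteins. RefSeq promoter sequences on GRCh38.p14, from 250 bases before to 50 after each annotated start, were found for 42 of the 48 genes, with 51 starts. PSMA7, PSMB1, PSMB6, PSMB7, PSMD4 and PSMG3 had no entry. The letters GAAA, any 2 bases and GAAA again were searched on both strands. They were found at 4 of the 6 starts of the immunoproteasome genes, at 3 of the 45 starts of the other members and at 3.57% of all 35116 starts. Each match is shown in capitals on the strand of its gene, with flanking bases in lower case, so that the near-identical cores can be compared. Where the capitals begin with TTTC, the motif is read from the other strand.
PSMB8, chr6:32844032-32844061, minus strand: gatctgtggcTTTCGCTTTCacttcctcct
PSMB10, chr16:67936852-67936881, minus strand: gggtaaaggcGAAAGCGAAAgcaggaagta
PSME1, chr14:24136189-24136218, plus strand: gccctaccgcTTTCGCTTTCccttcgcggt
PSME2, chr14:24146619-24146648, minus strand: cctggggagtGAAAGCGAAAgcccgggcga
PSMG4, chr6:3258904-3258933, plus strand: ttccggggccGAAAGCGAAAgcgcgctcgg
PSMA4, chr15:78540155-78540184, plus strand: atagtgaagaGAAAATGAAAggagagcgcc
PSMB4, chr1:151399495-151399524, plus strand: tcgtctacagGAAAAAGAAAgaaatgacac
The match of PSMB8 lay at 1 of its 2 annotated starts. Those letters were not in the PSMB9 window. PSMG4, an assembly chaperone gene that carries the same core letters as PSME2 and PSMB10, had 294 counts in shCON and 343 in shUSP12, with a log2 ratio of 0.15 (95% interval −0.08 to 0.38). The log2 ratios of PSMA4 (−0.08) and PSMB4 (0.09) were also below those of the immunoproteasome genes. A match of letters is a description of these windows and shows no binding.

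The balance of transcripts for exchangeable cutting subunits can be read within each library. It is the ratio of an immunoproteasome subunit to the subunit it replaces, which does not depend on the scaling between libraries. The exchange of the proteins in assembled cores was not measured. In counts, PSMB8 to PSMB5 was 0.189 in shCON and 0.272 in shUSP12, a 1.44-fold higher ratio (95% interval 1.301 to 1.597). PSMB9 to PSMB6 was 0.121 and 0.255, a 2.11-fold higher ratio (95% interval 1.81 to 2.46). PSMB10 to PSMB7 was 0.0106 and 0.0225, a 2.13-fold higher ratio (95% interval 1.48 to 3.11). The intervals of both libraries did not overlap for any of the 3 pairs, but they cover counting error only. Differences outside counting error were common, as 27.1% of all rows had log2 ratio intervals wholly above 0 and 29.1% wholly below. The third pair also rests on PSMB10, whose level is uncertain.

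Both terms of the PSMB9 to PSMB6 ratio differed between the libraries. PSMB6, the caspase-like subunit, was at 144.9 CPM in shCON (2525 counts) and 117.2 CPM in shUSP12 (2144 counts), with a log2 ratio of −0.31 (95% interval −0.39 to −0.22). PSMB5 had 4121 and 4107 counts, a log2 ratio of −0.07 (95% interval −0.14 to −0.01), and PSMB7, the trypsin-like subunit, had 4170 and 4632 counts, a log2 ratio of 0.08 (95% interval 0.02 to 0.14).

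Levels between genes were compared as CPM per kilobase of the main annotated transcript. On this scale the constitutive cutting subunits remained the more abundant ones in both libraries. PSMB5 had 226.5 CPM per kilobase in shCON and 215.0 in shUSP12, against 39.8 and 54.4 for PSMB8. PSMB6 had 175.8 and 142.2, against 17.3 and 29.4 for PSMB9. On this length, PSMB8 therefore made up 14.9% of the PSMB8 and PSMB5 transcripts in shCON and 20.2% in shUSP12. PSMB9 made up 8.94% and 17.1% of the PSMB9 and PSMB6 transcripts. These shares were smaller per kilobase of all annotated exons, though still higher in shUSP12. There PSMB8 was at 12.8 in shCON and 17.6 in shUSP12, against 152.6 and 144.9 for PSMB5. PSMB9 was at 5.26 and 8.96, against 100.1 and 81.0 for PSMB6. PSME1 and PSME2 together had 181.0 CPM per kilobase in shCON and 257.5 in shUSP12, against 113.6 and 104.9 for PSME3. In shCON this order depended on the length used, since per kilobase of all annotated exons PSME1 was at 37.6 and PSME2 at 24.7, which together lie below the 70.2 of PSME3.

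**Figure D2:**
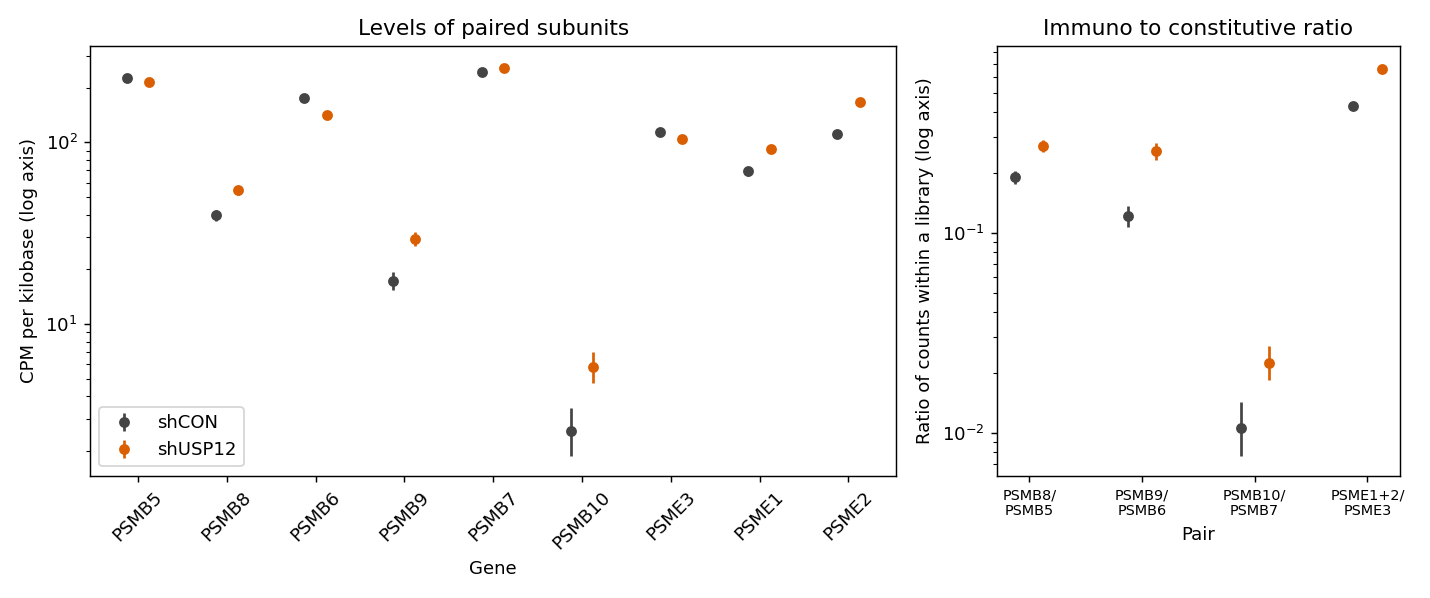
The left panel plots CPM per kilobase, on a log axis, of the constitutive and immunoproteasome subunits and the PA28 genes in shCON and shUSP12. The right panel plots the ratio of counts within each library, on a log axis, for the 3 exchangeable pairs and for PSME1 plus PSME2 over PSME3. Points are single libraries and bars are 95% counting intervals, and all 4 ratios are higher in shUSP12.

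The constitutive 20S core differed little. Of its 14 genes, 5 had a log2 ratio above 0 and 9 below, with a median of −0.06, whereas with total counts alone 11 lay above 0 and the median was 0.076. The largest counts belonged to PSMB4, with 5636 in shCON and 6313 in shUSP12, and to PSMA7, with 5386 and 5131. Their log2 ratios were 0.09 (95% interval 0.04 to 0.15) and −0.14 (95% interval −0.20 to −0.08). Differences of this size lay outside counting error at this depth, but how far 2 cultures of the same cells differ was not measured.

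The 20 PSMC and PSMD genes lay near the background of genes at their level. They include assembly chaperones of the 19S cap, such as PSMD5 and PSMD9, and leave out ADRM1 and SEM1, which are read below. Of the 20 genes 6 had a log2 ratio above 0. This held for 38.5% of the 4186 rows that averaged 50 CPM or more, the range where most proteasome genes lie. The median of the 20 genes was −0.11, beside −0.07 for those rows, and 9 of the 20 intervals lay below 0, beside 47%. With total counts alone the median became 0.026 and 11 genes lay above 0. The 6 ATPases ran from PSMC3, with 3480 counts in shCON and 2698 in shUSP12 and a log2 ratio of −0.44 (95% interval −0.51 to −0.36), to PSMC5, with 1879 and 2248 counts and 0.19 (95% interval 0.10 to 0.28). Of the main PSMC5 transcript, 13.7% lies opposite exons of FTSJ3, whose row had 2473 and 3737 counts, and the part of this in the PSMC5 ratio was not tested. PSMC1, another ATPase whose main transcript lies for 83.2% opposite exons of another gene, had 1416 and 1277 counts and a log2 ratio of −0.22 (95% interval −0.33 to −0.11). The ATPases form a ring with 1 copy of each, yet their transcripts were spread on both sides of 0.

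Among the 14 non-ATPase genes, the large scaffold subunits PSMD1 and PSMD2, which hold ubiquitin-binding factors, were both lower. PSMD1 had 3976 counts in shCON and 3373 in shUSP12, with a log2 ratio of −0.31 (95% interval −0.37 to −0.24). PSMD2 had 6117 and 5367 counts, with a log2 ratio of −0.26 (95% interval −0.31 to −0.21). PSMD12, a subunit of the lid, went the other way, with 966 and 1423 counts, and its log2 ratio of 0.49 (95% interval 0.37 to 0.61) fell within the range of the immunoproteasome genes. PSMD5, a chaperone of cap assembly, had 1117 and 1301 counts and a log2 ratio of 0.15 (95% interval 0.03 to 0.27). PSMD14, the deubiquitinase of the lid, had 2096 and 2241 counts, and its interval from −0.06 to 0.11 included 0.

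The remaining regulators and chaperones differed less. PSME4, the large PA200 activator, had 1866 counts in shCON and 1943 in shUSP12, with a log2 ratio of −0.01 (95% interval −0.10 to 0.08). PSMF1, known as an inhibitor of the 20S core in vitro, had 2473 and 2745 counts, with a log2 ratio of 0.08 (95% interval 0.0016 to 0.16). The 4 assembly chaperones PSMG1 to PSMG4 had log2 ratios between −0.17 and 0.15. The testis subunit PSMA8 gave 0 counts in shCON against 3 in shUSP12, and the thymus subunit PSMB11 had 0 in both, so neither was detectable above the floor of 3 counts.

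Read against a fold rather than counting error, few proteasome genes differed by much. At least 1.5-fold higher were 3 of the 46 genes, PSMB9, PSMB10 and PSMA6, where 11.9% of all 14612 rows were, and at least 1.5-fold lower were 0 genes, where 9.11% of all rows were. At 2-fold, 2 genes were higher, PSMB10 and PSMA6, against 6.48% of all rows, and 0 were lower, against 3.01%. Most of the changed rows had low counts, and of the 4186 rows that averaged 50 CPM or more, 3.15% were higher and 5.33% lower by 1.5-fold, and 0.956% and 0.979% by 2-fold. The 95% counting interval lay wholly above 0 for 5 of the 5 immunoproteasome genes and for 8 of the 41 other members, where this held for 27.1% of all rows. It lay wholly below 0 for 17 of the 41 and for 29.1% of all rows. Of the rows that averaged 50 CPM or more, 26% had intervals above 0 and 47% below. The log2 ratio itself was above 0 for 13 of the 41, beside 48.9% of all rows and 38.5% of those of 50 CPM or more.

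These directions depend on the scaling for the constitutive members but not for the immunoproteasome. With total counts alone, which shifted the median of all rows by 0.13, 28 of the 41 constitutive members lay above 0 in place of 13, and their median became 0.068. The 5 immunoproteasome genes had intervals above 0 under all 4 scalings tried, and the lowest of their log2 ratios was then between 0.36 and 0.54.

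A few core subunits had far fewer counts than their partners. The subunits of the 20S core are built in equal numbers, but PSMA6 had 25 counts in shCON, PSMA2 27 and PSMA1 130, while the other 11 genes of the constitutive core had between 1627 and 5636. PSMD9, an assembly chaperone of the cap, had 86 counts. In the GENCODE annotation, another protein-coding gene on the same strand covers 67.0% of the main PSMA1 transcript, 100% of that of PSMA2, 81.4% of PSMA6, 56.1% of PSMB10 and 28.8% of PSMD9. For the other 43 members this share was at most 0.126%. Those 5 genes had between 1.08 and 6.24 CPM per kilobase in shCON, below all 37 unshared constitutive genes above the filter, which had between 12.7 and 352.2. The rows of the genes that share their exons also held few counts. The row overlapping PSMB10 had 14 counts in shCON and 20 in shUSP12, that overlapping PSMA6 had 1 and 2, and those overlapping PSMA1, PSMA2 and PSMD9 had 0 in both.

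PSMA6 had the highest log2 ratio of all members, 1.31 (95% interval 0.69 to 2.10), on 25 and 68 counts, and it belongs to these genes, as does PSMB10. Without the 5 genes that share exons, the immunoproteasome median was 0.51 and the constitutive median −0.06, and PSMB9 alone was at least 1.5-fold higher. The levels of PSMA1, PSMA2, PSMA6, PSMB10 and PSMD9 are therefore uncertain, and the part of exon sharing in their low counts was not tested.

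**Figure D3:**
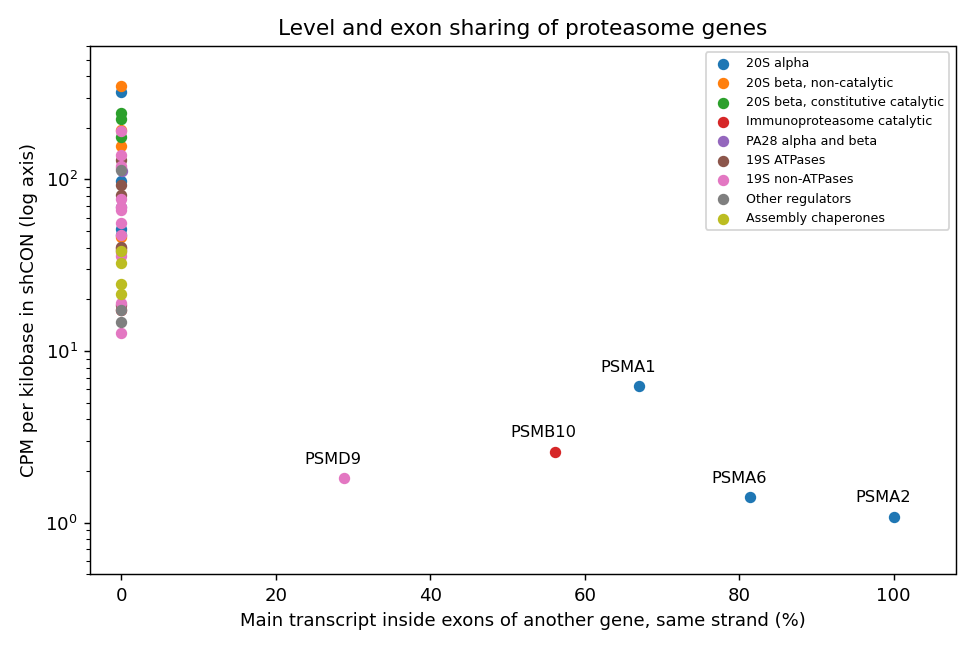
Each point is 1 of the 46 proteasome genes with a mean of at least 1 CPM, with the share of its main transcript that lies in exons of another gene on the same strand (percent) against its level in shCON (CPM per kilobase, log axis). The 5 genes that share exons, PSMA1, PSMA2, PSMA6, PSMB10 and PSMD9, lie between 1.08 and 6.24, below all other genes drawn.

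Genes that work with the proteasome without being PSM subunits were read next. Of 20 partners, all above the filter, 13 had a log2 ratio above 0 and 7 below, with a median of 0.05, and 1 of them was lower by 1.5-fold or more while 0 were higher by as much. Of all rows tested, 48.9% were above 0, 9.11% were lower by 1.5-fold and 11.9% were higher by 1.5-fold. POMP, the chaperone that matures the beta ring and is needed for both kinds of core, had 2279 counts in shCON and 2431 in shUSP12, with a log2 ratio of 0.02 (95% interval −0.06 to 0.11). The ubiquitin receptor ADRM1 had 1203 and 1306 counts, and the small lid subunit SEM1 had 915 and 994, with intervals that included 0 for both. UBE3C, a ubiquitin ligase that extends chains on substrates at the proteasome, had 4178 and 2863 counts, with a log2 ratio of −0.61 (95% interval −0.68 to −0.55). TXNL1, a thioredoxin-like protein bound to the cap, had 1520 and 1315 counts, with a log2 ratio of −0.28 (95% interval −0.39 to −0.17).

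NFE2L1 encodes NRF1, the transcription factor that raises constitutive proteasome genes when proteasome capacity is short, and DDI2 encodes the protease that activates it. NFE2L1 had 4657 counts in shCON and 6009 in shUSP12, with a log2 ratio of 0.30 (95% interval 0.24 to 0.35). DDI2 had 378 and 577 counts, with a log2 ratio of 0.54 (95% interval 0.35 to 0.73), the highest of the 20 partners. PAAF1, a chaperone of the cap ATPases, followed among the partners with 344 and 478 counts and a log2 ratio of 0.40 (95% interval 0.20 to 0.61). The core letters of the antioxidant response element that NRF1 binds, TGACNNNGC on either strand, were found at 12 of the 45 starts of the non-immunoproteasome members (26.7%), at 3 of the 6 immunoproteasome starts (those of PSMB9, PSME1 and PSME2) and at 13.3% of all starts, and in no member did they overlap an ISRE match. Of the non-immunoproteasome members with a match, PSMC4, PSMC5, PSMD5 and PSMD12 had log2 ratios above 0. Below 0 were PSMA4, PSMB3, PSMD1, PSMD3, PSMD9, PSME4, PSMG1 and PSMG2. A match of letters shows no binding, and the part of NRF1 in these ratios was not tested. PSMC5 and PSMD12 had the highest log2 ratios among the ATPases and non-ATPases, and PSMD1 had the lowest of the non-ATPases. The matches of these 3 genes are shown on the strand of the gene, with the match in capitals.
PSMC5, chr17:63827654-63827683, plus strand: gaccggatctGCTGTGTCAgcgccgccctc
PSMD12, chr17:67366723-67366752, minus strand: agacaaaaccTGACGCTGCaggctggagtg
PSMD1, chr2:231056887-231056916, plus strand: ggcggcctgaggaggcgacTGACTGAGCag

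The immunoproteasome supplies peptides to the MHC class I pathway, and 12 genes of that pathway and its regulators were set beside it. Of these, 9 were above 0 and 3 below, with a median of 0.38, and 4 were at least 1.5-fold higher, beside 48.9% above 0 and 11.9% at least 1.5-fold higher among all rows. B2M, the light chain of MHC class I, had 6337 counts in shCON and 11918 in shUSP12, with a log2 ratio of 0.84 (95% interval 0.80 to 0.89). The peptide transporter genes TAP1 and TAP2 lie in the same stretch of chromosome 6 as PSMB8 and PSMB9. TAP2 had 476 and 675 counts, with a log2 ratio of 0.43 (95% interval 0.26 to 0.61). TAP1, whose annotated span lies within that of PSMB9, had 1566 and 1754 counts. Its log2 ratio was 0.09 (95% interval −0.01 to 0.19), below the interval of PSMB9.

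Regulators that are known to induce immunoproteasome genes were higher as well, but their part in the ratios of those genes was not tested. IRF1 had 273 counts in shCON and 581 in shUSP12, with a log2 ratio of 1.01 (95% interval 0.81 to 1.23). NLRC5, the transactivator of MHC class I genes, had 461 and 669 counts, with a log2 ratio of 0.47 (95% interval 0.29 to 0.64). The 3 genes of the pathway that were lower were TAPBP, CALR and PDIA3, all of the peptide loading complex, with log2 ratios of −0.40, −0.11 and −0.16, and with total counts alone 2 genes of the list lay below 0.

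**Figure D4:**
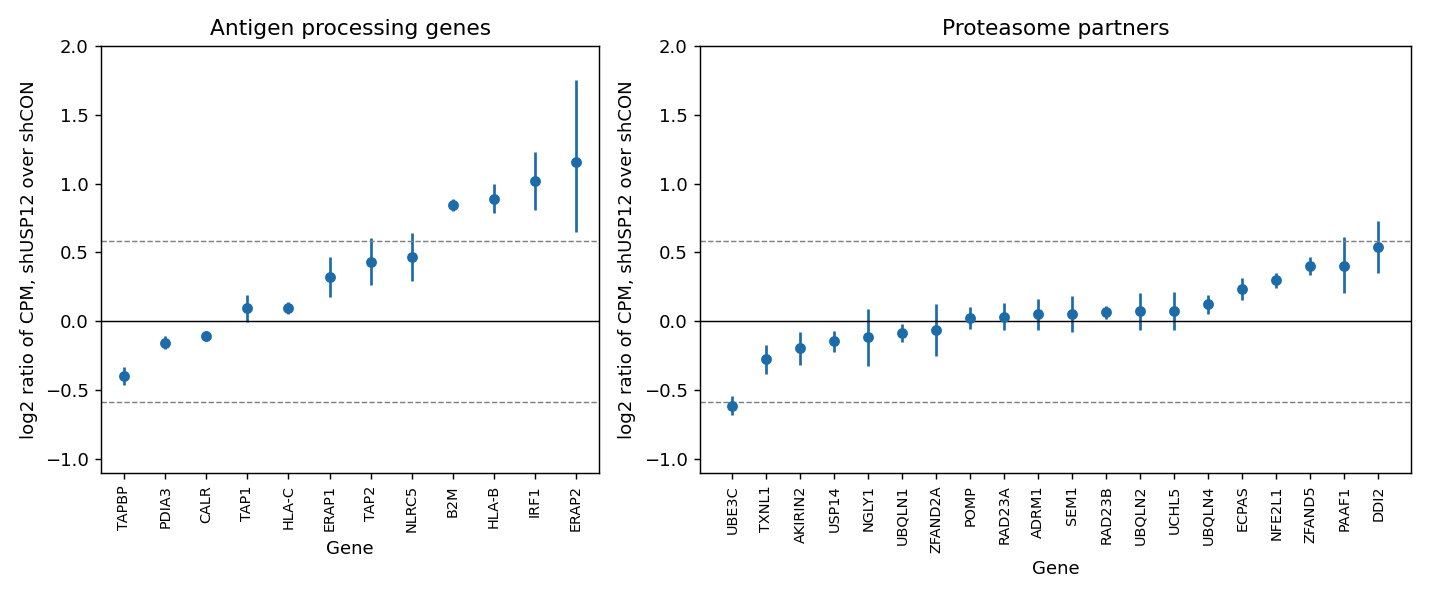
The log2 ratio of CPM in shUSP12 over shCON is plotted for 12 antigen processing genes (left) and 20 proteasome partners (right), 1 library per group, with 95% counting intervals and dashed lines at 1.5-fold. Antigen processing genes run from −0.40 for TAPBP to 1.15 for ERAP2, and the partners run from −0.61 for UBE3C to 0.54 for DDI2.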

How the data were processed

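RNA was measured in 2 libraries, grouped by the treatment label. Per the study's methods, the authors made stranded mRNA libraries, filtered reads with Seqtk, aligned them to GRCh38 with HISAT2 and counted uniquely mapped fragments with StringTie; the submitters' processing notes name Trimmomatic, HISAT2 2.0.4 and HTSeq 0.6.0 instead. The annotation release and the use of strand in counting are not given in the sources used here. The deposited values are raw whole-number counts per gene, without normalisation. In each file 91 lines of annotation text without a count were left out.

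TMM factors came from edgeR 4.0.16 in R 4.3.3 (0.955 for shCON, 1.05 for shUSP12). Rows had to average 1 CPM or more, and the pseudocount was 0.1 CPM. Intervals are exact Clopper-Pearson and, for ratios of ratios, exact conditional intervals of the odds ratio, without pseudocount. Such intervals hold only the counting error, because each group has 1 library. PCR copies were not told apart by molecular identifiers, so even the counting error may be larger than these intervals. Coordinates, exons and main transcript lengths (MANE Select where given) came from GENCODE release 44 on GRCh38, which held 99.1% of the Ensembl identifiers. Promoters came from RefSeq on GRCh38.p14. Computations used Python 3.11.15, SciPy 1.17.1 and Matplotlib 3.10.9. The procedure was checked on simulated counts that held only counting error and planted changes. Such counts cannot test the effect of differences between cultures or of exon sharing.

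The members and lists were chosen with earlier results of these data known. Named were USP12, the immunoproteasome and the constitutive cutting subunits, the 4 highest and 4 lowest other members that averaged 5 CPM or more, PSMF1, and POMP, ADRM1, SEM1, NFE2L1 and the 2 highest and 2 lowest partners. Of the antigen processing list, TAP1, TAP2, B2M, NLRC5 and IRF1 were named, and some of its genes are not reported here and were left out of its counts and median. Members below 1 CPM were given by their counts. Further genes in the text were picked with their values in view.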

Additional observations from a re-analysis of the deposited data

How the results depend on the processing

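No paired analysis was possible because both shCON and shUSP12 held 1 library, so no library could be left out either. Leaving out genes that share exons and the limit of 50 CPM were chosen after seeing the data. The log2 ratio of USP12 lay between −1.81 and −1.63 under 5 alternatives. The constitutive median turned from −0.06 to 0.068 with total counts alone, and the difference of medians was 0.83 with PSMB8, PSMB9 and PSMB10 alone. The number of members at least 1.5-fold higher was 3, against 5 with total counts alone, 1 at an average of 5 CPM or more and 1 without genes that share exons. That at least 2-fold higher was 2, against 0 with a pseudocount of 1 CPM, at an average of 5 CPM or more and without genes that share exons. In counts per kilobase, PSMB8 to PSMB5 was 0.253 in shUSP12, and PSMB9 to PSMB6 was 0.0982 in shCON and 0.207 in shUSP12. With exon union lengths, the median level of the unshared constitutive members was 28.7 CPM per kilobase in shCON and in shUSP12.

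Of all rows, 1744 were at least 1.5-fold higher, against 7397 with no filter, 824 at an average of 5 CPM or more and 132 at 50 CPM or more. At least 1.5-fold lower were 1331, against 5386, 728 and 223. At least 2-fold higher were 947, against 3993, 361 and 40. At least 2-fold lower were 440, against 2447, 168 and 41, against 291 with total counts alone and against 214 with a pseudocount of 1 CPM. Of 150 values of 30 named genes under other scalings and pseudocounts, 128 stayed inside their counting intervals and 21 moved outside without a change of sign. The remaining 1, of PSMB5, left its interval and changed sign, to 0.058 with total counts alone. POMP changed sign inside its interval, to −0.022 with upper quartile scaling. What caused these shifts was not tested. Depth limits PSMA8 and PSMB11, at 3 counts or fewer.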

Other observations

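Some rows carry a proteasome gene's name without coding for a subunit, and they were read after the values above were seen. PSMA3-AS1, annotated antisense to PSMA3 on chromosome 14, gave 259 counts in shCON against 396 in shUSP12, with a log2 ratio of 0.54 (95% interval 0.31 to 0.77), whereas PSMA3 itself had 1627 and 1866 counts and a log2 ratio of 0.13 (95% interval 0.03 to 0.22). PSMB8-AS1, antisense to PSMB8, had 1 count in shCON and 14 in shUSP12, below the 1 CPM filter, and no ratio is given. PSMG3-AS1 had 232 and 233 counts, and PSMD6-AS2 had 26 in both. In the GENCODE annotation no exon of PSMA3 overlaps an exon of another gene. For PSMB8, PSMG3 and PSMD6, 17.3%, 3.04% and 7.88% of all annotated exons lie opposite exons of other genes. The sources used here do not say whether strand entered the counting, so reads of both strands in those stretches cannot be told apart. PSMC3IP, which encodes a recombination protein, had 279 and 270 counts and a log2 ratio of −0.12 (95% interval −0.36 to 0.13).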
